A study of Mus musculus with 15 samples.

Results

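A set of 10 genes of the unfolded protein response were followed across mouse skin exposed to 2 blistering agents, namely Hspa5, Dnajb9, Pdia4, Pdia6, Xbp1, Herpud1, Sdf2l1, Creld2, Hyou1 and Calr. They were chosen as chaperones, folding enzymes, a degradation component (Herpud1) and a transcription factor (Xbp1) served by the ATF6 and XBP1 branches of the response. All were found by Ensembl identifier. They are 10 of 53700 genes in the count table, and all 10 were among the 22529 genes with enough counts to be tested. Whole dorsal skin of male SKH-1 mice, a hairless strain, was taken for total RNA sequencing 24 h after treatment, in 15 libraries with 3 in each of 5 groups. Control skin received ethanol, the vehicle. PAO skin received phenylarsine oxide, an arsenical that binds neighbouring thiols, at 100 µg per mouse, which is 25 µg/cm2. CEES skin received 2-chloroethyl ethyl sulfide, an alkylating analog of sulfur mustard, at 2 mg per mouse, which is 500 µg/cm2. The SNX-5422+PAO and SNX-5422+CEES groups received the same agents and then, 15 min later and on the same site, SNX-5422 at 20 mg/kg. SNX-5422 inhibits HSP90, a chaperone of the cytosol with a paralog in the endoplasmic reticulum (ER). SNX-5422 alone was not among the groups analysed, so its effect on uninjured skin enters no comparison. The labels give neither the age of the mice nor whether every library is from an animal of its own. The p-values therefore measure only how the 3 samples within each of the 5 groups spread, pooled over all 15 libraries. That spread may be technical.

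Secreted and membrane proteins fold in the ER with the help of chaperones, which hold unfolded chains, and of protein disulfide isomerases, which form and rearrange disulfide bonds. When unfolded protein accumulates, the membrane sensors ATF6, IRE1 and PERK start the unfolded protein response. ATF6 is cut to release a transcription factor, IRE1 splices the messenger of Xbp1 into a form that encodes a potent factor, and both factors raise chaperone and degradation genes, while PERK slows translation and favours ATF4 and CHOP. The counts used here are per gene, so spliced and unspliced Xbp1 messengers are summed.

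Libraries held 16838000 to 28887000 counts on genes (median 20512000), and levels are given in CPM, counts scaled to a common library size with TMM. Whole skin is a mixture, so fewer cells of a type and less RNA per cell cannot be told apart. Libraries differed in composition. Transcripts of 12 skeletal muscle markers took 8.15 ± 2.26% of gene counts in control skin (SD, n = 3), 8.30 ± 0.268% after PAO, 10.1 ± 0.860% in SNX-5422+PAO, 3.68 ± 0.311% after CEES and 7.14 ± 0.908% in SNX-5422+CEES. Mitochondrial ribosomal RNA took 5.72 to 9.43% in the control and CEES-exposed groups, 9.69 to 17.7% after PAO and 12.3 to 17.4% in SNX-5422+PAO. Keratinocyte markers, which define the labelled tissue, were present in every library and held group means of 0.865 to 1.52%. The titles number the control, PAO and SNX-5422+PAO libraries 1 to 9 and the CEES and SNX-5422+CEES libraries 13 to 18, so any difference in handling between these series of libraries cannot be told apart from CEES itself.

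In control skin the members spanned a wide range once counts were divided by exon length (CPM per kb of exon, lengths from GENCODE M21 on GRCm38). Calr, encoding the lectin chaperone and calcium store calreticulin, stood highest at 87.8 ± 1.12 CPM per kb (SD, n = 3). Hspa5, encoding BiP, the HSP70 of the ER, followed at 39.0 ± 6.66, and Xbp1 at 31.4 ± 0.787 CPM per kb. Herpud1, encoding an ER membrane protein of the degradation complex, had 23.7 ± 0.268, and Pdia4, a disulfide isomerase also called ERp72, had 21.5 ± 0.359 CPM per kb. The disulfide isomerase gene Pdia6 had 16.0 ± 1.56 and Hyou1, the nucleotide exchange factor of BiP known as GRP170, had 13.4 ± 1.43 CPM per kb. These neighbours were the only ones in the order whose control libraries overlapped. Creld2, encoding a secreted and ER-resident protein induced by ER stress, had 9.85 ± 0.803, Dnajb9, the J-domain partner of BiP known as ERdj4, had 8.04 ± 0.185, and Sdf2l1, a partner of the J-domain protein ERdj3, was lowest at 5.31 ± 0.376 CPM per kb.

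Several members are textbook targets of ATF6 and XBP1, whose binding sites were searched as fixed letters in the 250 bases before each start site (RefSeq, GRCm38.p6, both strands). RefSeq windows were matched for 9 members, Hyou1 being the exception. The ER stress response element, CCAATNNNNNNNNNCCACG, was found before 4 of the 9 (Hspa5, Pdia6, Creld2 and Calr) and before 0.113% of all 32851 promoters. The shorter ERSE-II, ATTGGNCCACG, was found before Herpud1 and before 0.0304% of all promoters. The core of the unfolded protein response element, TGACGTG, was found before Hspa5 and before 1.65% of all promoters, and no match overlapped another. None of the 3 motifs was found in the windows of Dnajb9, Pdia4, Xbp1 and Sdf2l1, which says only that these letters are absent there. The matches are shown because they are the elements through which the response is known to act on such genes, each written 5′ to 3′ along the gene's strand with up to 15 flanking bases and the match in capitals.
Hspa5, ERSE, chr2:34772010-34772058, plus strand: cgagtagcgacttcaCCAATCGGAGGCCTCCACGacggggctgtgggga
Hspa5, UPRE core, chr2:34771918-34771954, plus strand: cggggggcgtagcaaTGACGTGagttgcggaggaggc
Pdia6, ERSE, chr12:17266476-17266524, plus strand: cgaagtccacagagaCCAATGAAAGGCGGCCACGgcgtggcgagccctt
Creld2, ERSE, chr15:88819505-88819553, plus strand: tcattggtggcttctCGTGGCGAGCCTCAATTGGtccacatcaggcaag
Calr, ERSE, chr8:84847060-84847108, minus strand: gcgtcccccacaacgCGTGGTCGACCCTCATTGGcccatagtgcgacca
Herpud1, ERSE-II, chr8:94386362-94386402, plus strand: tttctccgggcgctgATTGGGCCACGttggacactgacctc
The element of Hspa5 lay at positions -65 to -47 from the start site and that of Pdia6 at -98 to -80, both reading along the gene. Those of Creld2 (-126 to -108) and Calr (-162 to -144) read on the opposite strand, so their capitals show the reverse complement. The ERSE-II of Herpud1 lay at -52 to -42, and the UPRE core of Hspa5 at -157 to -151. A match is a description of the sequence and was not tested as a binding site.

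PAO was compared with vehicle to ask how skin responds to the arsenical, and 8 of the 10 members rose, while none fell. Across all tested genes, 11.9% were raised and 8.58% lowered at an adjusted p under 0.05. The median log2 fold change was 0.52 for the members and -0.004 for all genes. Libraries of the PAO group lay above every control library for 9 of the 10 members, which 18.8% of all genes did.

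**Figure D1:**
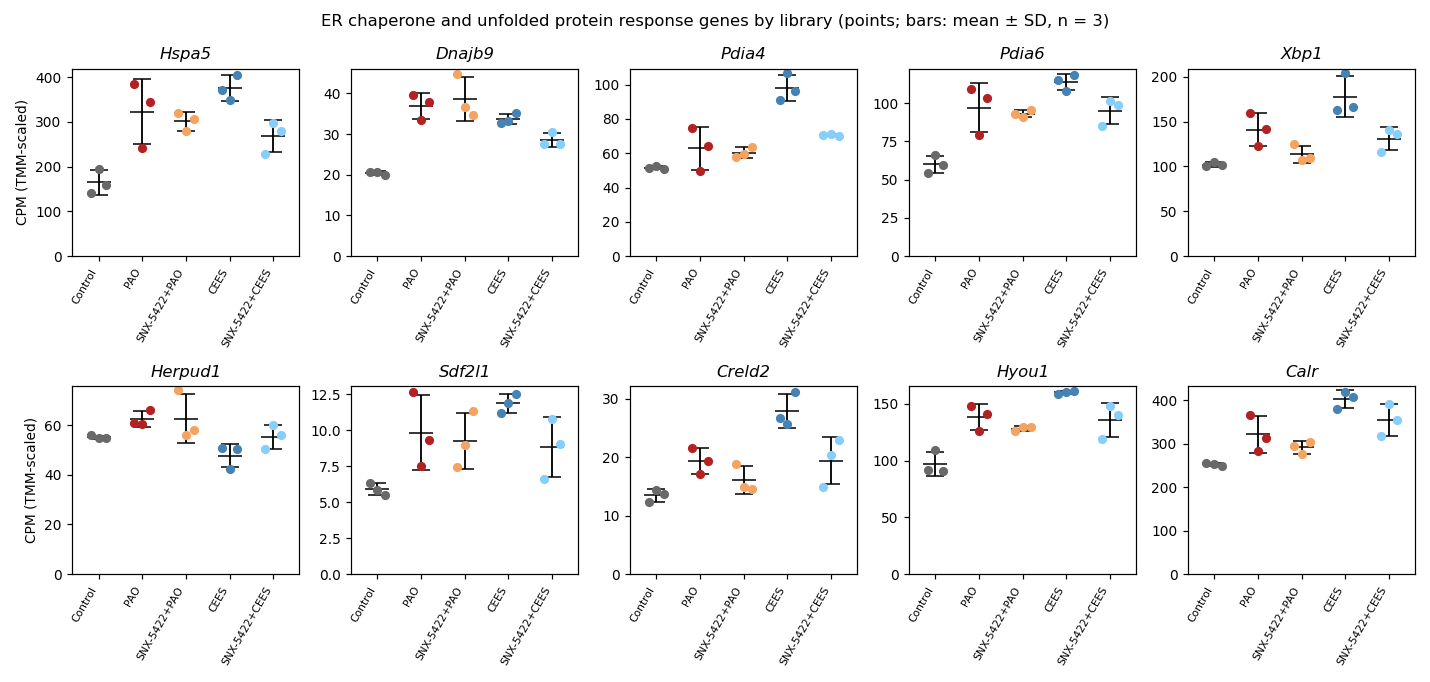
Levels of the 10 genes in each library, as CPM on TMM-scaled libraries (vertical axes from 0, a scale of its own per gene), with groups on the horizontal axis and bars for the mean ± SD of 3 libraries. Control libraries lie lowest for 9 genes by group mean, CEES lies highest for 8, and Herpud1 is lowest in CEES.

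Among the BiP machinery, Hspa5 stood at 141, 196 and 158 CPM in the control libraries and at 384, 242 and 344 CPM after PAO. All PAO libraries lay above all control libraries, with the second PAO library the lowest of its group. Hspa5 rose 1.96-fold (95% interval 1.57 to 2.46), a log2 fold change of 0.97 ± 0.15 (SE, adjusted p = 0.000333). Its cochaperone Dnajb9 went from 20.8, 20.8 and 19.9 CPM to 39.6, 33.5 and 37.9 CPM and rose by 0.85 ± 0.10 on the log2 scale (adjusted p = 3.9e-05). The groups were far apart against their spread. Hyou1, the exchange factor of BiP, had 91.6, 109 and 90.9 CPM in control and 148, 126 and 141 CPM after PAO, and rose by 0.51 ± 0.09 (adjusted p = 0.00102). Sdf2l1 had 6.31, 5.86 and 5.48 CPM in control and 12.7, 7.50 and 9.31 CPM after PAO. It rose by 0.75 ± 0.21 on the log2 scale (adjusted p = 0.0177), with PAO libraries that differed widely among themselves.

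Of the disulfide isomerases, Pdia6 had 54.3, 65.9 and 59.6 CPM in control and 109, 79.1 and 103 CPM after PAO. It rose by 0.70 ± 0.11 on the log2 scale (adjusted p = 0.000341). Pdia4 had 51.2, 52.6 and 51.0 CPM in control and 74.6, 49.6 and 64.4 CPM after PAO. Here the second PAO library lay below every control library and the groups overlapped, and the difference of 0.29 ± 0.11 did not pass (adjusted p = 0.0793). Calr, the lectin chaperone, had 256, 253 and 249.7 CPM in control and 367, 284 and 313 CPM after PAO, and rose by 0.35 ± 0.10 (adjusted p = 0.0173). Creld2 had 12.3, 14.4 and 13.7 CPM in control and 21.6, 17.1 and 19.3 CPM after PAO, and rose by 0.52 ± 0.15 on the log2 scale (adjusted p = 0.0248). Both genes kept their groups apart.

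Xbp1, the transcription factor gene, had 100.0, 105 and 101 CPM in control and 159, 123 and 141 CPM after PAO, and rose by 0.47 ± 0.11 (adjusted p = 0.00595). Herpud1 had 56.0, 54.9 and 54.9 CPM in control and 61.1, 60.4 and 66.3 CPM after PAO. Its PAO libraries all lay above the control libraries, yet the log2 difference of 0.18 ± 0.11 did not pass (adjusted p = 0.257) and its sign turned (-0.02) when libraries were scaled to total counts alone. That scaling left 4 of the 10 members raised. Without the first PAO library or without the third control library 5 members remained called, since Sdf2l1, Creld2 and Calr were lost, and Creld2 was also lost without the first control or the third PAO library (adjusted p = 0.0959 and 0.0748). Leaving out the second PAO library gave 9, with Pdia4 at 0.42 (adjusted p = 0.00364).

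The second PAO library was the lowest of its group for all 10 members, and it also held the most mitochondrial ribosomal RNA, 17.7% against 9.69% in the first and 13.0% in the third. With the log2 share of that RNA as a covariate, Sdf2l1 (0.88, adjusted p = 0.0766) and Calr (0.44, adjusted p = 0.054) no longer passed. That share did not overlap between control and PAO libraries, so the fit cannot tell it apart from PAO. Macrophage and monocyte markers rose after PAO as well (8 of 8, group means of 0.0389% of gene counts in control and 0.0922% after PAO), as did 7 of 7 tested neutrophil markers (0.00163 and 0.00748%). Fibroblast markers rose for 7 of 8 genes, with shares of 0.392 ± 0.0731% in control and 0.535 ± 0.196% after PAO. These shares overlapped between the groups, and the second PAO library was the lowest of its group at 0.317%. Keratinocyte markers fell for 3 of 8 genes (5 by DESeq2), with shares of 1.45 ± 0.0975% in control and 0.978 ± 0.0579% after PAO. The part of these cells in the members' values was not tested.

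**Figure D2:**
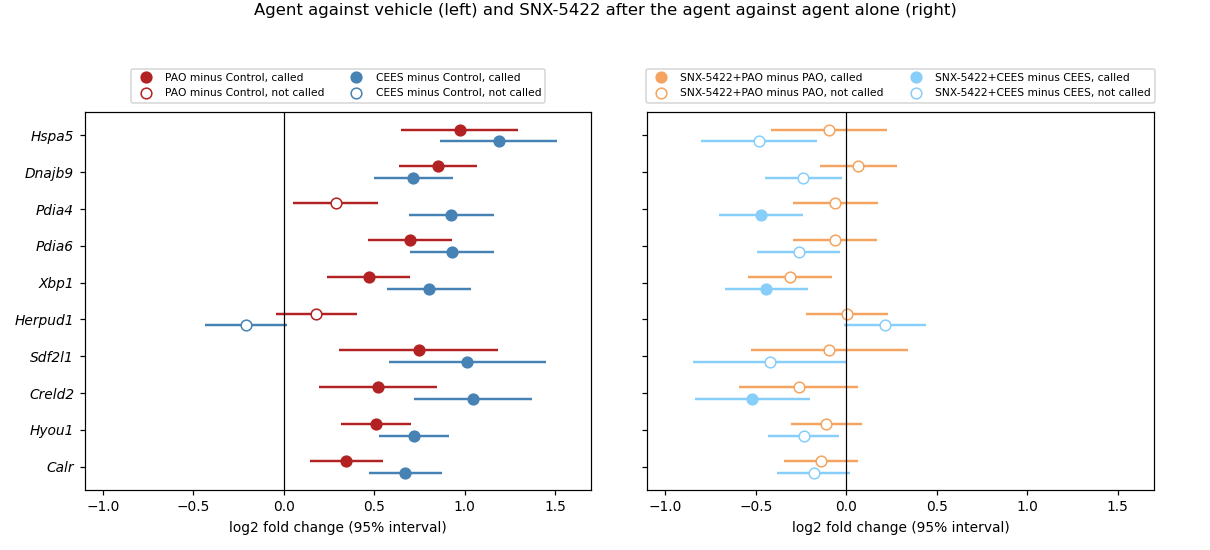
Log2 fold changes (horizontal axis) of the 10 genes with 95% intervals from the edgeR fit, for PAO and CEES against control on the left and for SNX-5422 after each agent against the agent alone on the right. Filled points passed an adjusted p under 0.05 and open points did not, giving 8 and 9 of 10 on the left and 0 and 3 of 10 on the right.

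CEES was compared with vehicle to ask the same of the alkylating agent, and 9 of the 10 members rose, while none fell. Over all tested genes 17.8% were raised and 16.2% lowered. The members' median log2 fold change was 0.86, against -0.04 for all genes. For the same 9 members every CEES library lay above every control library, which held for 23.5% of all genes. Control values are those given above, and both agents were compared with the same control libraries.

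Hspa5 reached 372, 348 and 406 CPM after CEES and rose 2.28-fold (95% interval 1.82 to 2.85), a log2 fold change of 1.19 ± 0.15 (adjusted p = 2.16e-05). This was the largest change among the members. Dnajb9 stood at 32.8, 33.2 and 35.1 CPM and rose by 0.72 ± 0.10 (adjusted p = 5.3e-05). Hyou1 stood at 158, 161 and 161 CPM, a narrow range, and rose by 0.72 ± 0.09 (adjusted p = 2.06e-05). Sdf2l1 had 11.2, 11.9 and 12.5 CPM and rose by 1.01 ± 0.20 on the log2 scale (adjusted p = 0.00113). The BiP machinery was thus higher in every CEES library than in any control library.

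Both disulfide isomerase genes rose. Pdia4 had 91.2, 107 and 96.4 CPM after CEES, a log2 fold change of 0.93 ± 0.11 (adjusted p = 1.03e-05), and Pdia6 had 115, 108 and 119 CPM, a log2 fold change of 0.93 ± 0.11 (adjusted p = 9.45e-06). Creld2 had 26.7, 25.6 and 31.1 CPM and rose 2.07-fold (95% interval 1.65 to 2.59, adjusted p = 6.91e-05). Calr had 381, 419.8 and 408 CPM and rose 1.59-fold (95% interval 1.38 to 1.83, adjusted p = 5.5e-05). Xbp1 had 163, 204 and 167 CPM, with the second library the highest, and rose 1.74-fold (95% interval 1.49 to 2.05, adjusted p = 3.47e-05).

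Herpud1 departed from the other members. It had 50.7, 42.3 and 50.4 CPM after CEES, all below the control libraries, and its log2 difference of -0.21 ± 0.11 did not pass (adjusted p = 0.143). Scaled to the upper quartile it passed as lowered (-0.28, adjusted p = 0.041), and with the skeletal muscle share as a covariate its sign turned (0.12, adjusted p = 0.75). The count of 9 raised members was the same without any single library.

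Skin composition moved with CEES. All 8 fibroblast markers rose (0.392 ± 0.0731% of gene counts in control and 1.74 ± 0.119% after CEES), as did all 8 macrophage and monocyte markers (0.0389 ± 0.00261 and 0.204 ± 0.0451%), 6 of 7 tested neutrophil markers (0.00163 and 0.0229%) and 5 of 6 endothelial markers (0.0111 and 0.0343%). Of the skeletal muscle markers 10 of 12 fell. Pancreatic transcripts, which do not belong to skin and held 0.0977 to 0.328% of counts in control libraries, fell for 11 of 11 genes to 0.00132 to 0.00185%. Plasma cell markers, which define a cell type rich in ER, held 0.00369 ± 0.000425% in control and 0.00361 ± 0.000753% after CEES, with Igha raised (8.32 CPM in control and 15.6 CPM after CEES) and Ighm (14.0 and 5.52 CPM) and Igkc (7.66 and 4.06 CPM) lowered among the 7 tested. Of the 8 plasma cell markers, 6 had counts in every library, Pou2af1 was at 0 in 2 libraries and Tnfrsf17, which was not tested, in 7. Keratinocyte markers fell for 4 of 8 genes (1.45 ± 0.0975 and 1.24 ± 0.217%). With the muscle share as a covariate 8 of the 9 calls held, and Sdf2l1 did not pass (1.18, adjusted p = 0.109). Muscle shares did not overlap between control and CEES libraries, so that fit cannot tell them apart from CEES. The part of these cell types in the members' values was not tested.

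The agents were set side by side, at doses that differ (500 µg/cm2 of CEES and 25 µg/cm2 of PAO). Relative to PAO, 4 of the 10 members were higher after CEES and 1 was lower, where 9.86% of all genes were higher and 9.02% lower. Pdia4 was 1.56-fold higher (95% interval 1.33 to 1.83, adjusted p = 0.000799), Creld2 1.44-fold higher (1.15 to 1.80, adjusted p = 0.023), Calr 1.25-fold higher (1.09 to 1.44, adjusted p = 0.025) and Xbp1 1.26-fold higher (1.07 to 1.48, adjusted p = 0.0416). Herpud1 was lower after CEES, by -0.39 ± 0.11 on the log2 scale (adjusted p = 0.0175). For Hspa5 the log2 difference was 0.22 (95% interval -0.11 to 0.54), for Dnajb9 -0.14 (-0.35 to 0.08), for Pdia6 0.23 (0.00 to 0.46), for Sdf2l1 0.27 (-0.16 to 0.69) and for Hyou1 0.21 (0.01 to 0.40), and none of these passed. The count depended on the fit. It was 1 without the third PAO library, 2 without the second PAO, the second CEES or the third CEES library. With mitochondrial ribosomal RNA as a covariate Herpud1 alone stayed called. With muscle as a covariate none of the 5 calls held (adjusted p of 0.0537 for Creld2 to 0.955 for Herpud1). In that fit 2 other members, Hspa5 (1.08, adjusted p = 0.0388) and Hyou1 (0.67, adjusted p = 0.0396), passed. Neither the muscle nor the mitochondrial share overlapped between PAO and CEES libraries, so these fits cannot tell the shares apart from the agents. Xbp1 alone was lost without the third control or the third SNX-5422+CEES library, which left 4. Scaling to total counts raised 8 members and lowered 0, with the sign of Dnajb9 turned (0.18).

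SNX-5422 was given after PAO to ask whether HSP90 inhibition alters the response to it, and no member passed the test in edgeR or in DESeq2. A single member, Xbp1, had an unadjusted p under 0.05, as did 4490 of all 22529 tested genes. Among all tested genes 2.57% were raised and 3.39% lowered. The members' median log2 fold change was -0.10, against -0.009 for all genes. Composition moved here too. In edgeR 5 of 7 tested neutrophil, 3 of 8 fibroblast and 2 of 8 macrophage and monocyte markers were lowered, and 2 of 12 muscle markers were raised. DESeq2 gave 6, 5, 2 and 5 in the same order. The part of these cells in the members' values was not tested.

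Xbp1 had 125, 107 and 109 CPM in SNX-5422+PAO against 159, 123 and 141 CPM after PAO alone, so that the groups overlapped by the first SNX-5422+PAO library. The log2 difference was -0.31 ± 0.11 (95% interval -0.54 to -0.08, adjusted p = 0.111). It passed without the second PAO library (-0.41, adjusted p = 0.0402) and with libraries scaled to total counts (-0.45, adjusted p = 0.0288). Creld2 had 18.8, 14.9 and 14.5 CPM in SNX-5422+PAO, a log2 difference of -0.26 (95% interval -0.59 to 0.07).

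The BiP machinery overlapped between the groups. Hspa5 had 320.2, 279 and 307 CPM in SNX-5422+PAO, within the range of the PAO libraries, a log2 difference of -0.10 (95% interval -0.42 to 0.22). Dnajb9 had 44.9, 36.6 and 34.6 CPM, with the first library above every PAO library, a difference of 0.07 (-0.15 to 0.28). Hyou1 had 126, 129.6 and 129 CPM, a difference of -0.11 (-0.31 to 0.09). Sdf2l1, at 7.46, 8.97 and 11.3 CPM, had the widest interval, -0.09 (-0.53 to 0.34).

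For the folding enzymes the intervals were similar in width. Pdia4 had 57.6, 59.6 and 63.7 CPM in SNX-5422+PAO, a log2 difference of -0.06 (95% interval -0.30 to 0.17), and Pdia6 had 92.9, 90.9 and 95.6 CPM, also -0.06 (-0.29 to 0.17). Calr had 294, 276 and 304 CPM, a difference of -0.14 (-0.34 to 0.06). Herpud1 had 74.1, 56.0 and 58.0 CPM, with the first library the highest of all 15, and a log2 difference of 0.002 (-0.22 to 0.23). Differences within these intervals were not resolved at this depth and number of libraries.

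Set against control, SNX-5422+PAO skin had 5 of the 10 members raised and none lowered, where 10.7% of all genes were raised and 8.66% lowered. These were Dnajb9 (log2 fold change 0.92, adjusted p = 3.58e-05), Hspa5 (0.87, adjusted p = 0.00104), Pdia6 (0.64, adjusted p = 0.000967), Sdf2l1 (0.65, adjusted p = 0.0386) and Hyou1 (0.40, adjusted p = 0.007). Pdia4, Xbp1, Herpud1, Creld2 and Calr differed by 0.22, 0.16, 0.18, 0.26 and 0.20 without passing. For all 10 members every SNX-5422+PAO library lay above every control library in TMM-scaled CPM, Herpud1 by less than the rounding shown, which 18.4% of all genes did. Those last 5 members turned below 0 (-0.18 to -0.07) when libraries were scaled to total counts, under which 2 members were called. As a plain share of gene counts the 10 members summed to 0.0870 ± 0.00104% in control, 0.112 ± 0.0229% after PAO and 0.0935 ± 0.00536% in SNX-5422+PAO, with mitochondrial ribosomal RNA at 7.44, 13.4 and 15.6% in the same order. Sdf2l1 lost its call in 7 of the 15 fits that left out a single library, namely each control, the third PAO, the second and the third SNX-5422+PAO and the third SNX-5422+CEES library (adjusted p of 0.0511 to 0.192). The fits gave 4 members in those cases, and 3 members were called with either RNA share as a covariate.

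SNX-5422 given after CEES was compared with CEES alone in the same way, and 3 of the 10 members fell, Pdia4, Xbp1 and Creld2, while none rose. Over all tested genes 3.54% were raised and 3.46% lowered. The members' median log2 fold change was -0.34, against 0.01 for all genes. An unadjusted p under 0.05 was found for 8 members and for 4433 of all 22529 tested genes. For 8 members every SNX-5422+CEES library lay below every CEES library, which 12.8% of all genes did.

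Pdia4 had 70.6, 71.2 and 70.2 CPM in SNX-5422+CEES against 91.2, 107 and 96.4 CPM after CEES alone. The groups were well apart, and the gene fell to 0.721 of its level (95% interval 0.614 to 0.847), a log2 fold change of -0.47 ± 0.11 (adjusted p = 0.0155). Xbp1 had 116, 140.2 and 136 CPM against 163, 204 and 167 CPM and fell to 0.735 of its level (0.627 to 0.862, adjusted p = 0.0203). Creld2 had 15.0, 20.3 and 22.8 CPM against 26.7, 25.6 and 31.1 CPM and fell to 0.697 of its level (0.559 to 0.869, adjusted p = 0.0467). The first SNX-5422+CEES library was the lowest for Xbp1 and Creld2.

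Members that did not pass were mostly lower too. Hspa5 had 229, 297 and 281 CPM in SNX-5422+CEES, below all CEES libraries, and differed by -0.48 ± 0.15 on the log2 scale (95% interval -0.80 to -0.16, adjusted p = 0.0696). It passed in DESeq2 (-0.50, adjusted p = 0.0247), in which 4 members were called, and with libraries scaled to total counts (-0.60, adjusted p = 0.027), under which 5 were. Hspa5 also passed without the second control, the first PAO or the second PAO library (adjusted p of 0.0183 to 0.0419). The same held with only the compared groups fitted (-0.50, adjusted p = 0.0208) and without a filter on low counts (-0.49, adjusted p = 0.00177). Hspa5 thus passed in 8 of 25 alternatives and did not in 17. Dnajb9 had 27.5, 30.5 and 27.6 CPM, a difference of -0.24 (-0.45 to -0.02), and Hyou1 had 119, 148 and 140.4 CPM, also -0.24 (-0.43 to -0.04). Pdia6 had 84.9, 102 and 98.5 CPM, a difference of -0.26 (-0.49 to -0.03). For these genes the groups did not overlap although the adjusted p missed the threshold. Sdf2l1 had 6.63, 10.8 and 9.06 CPM, a difference of -0.42 (-0.85 to -0.002). Calr, at 318, 392 and 355 CPM, overlapped the CEES libraries and differed by -0.18 (-0.38 to 0.02). Herpud1 had 50.3, 59.9 and 56.0 CPM, with the first library inside the CEES range, and differed upwards by 0.21 (-0.01 to 0.44).

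The 3 calls depended on the libraries and on the fit. Without the second CEES library none of the 10 members passed, and without the first or the third SNX-5422+CEES library 1 did. Pdia4 lost its call in the fits without the second CEES (adjusted p = 0.0665) and the third SNX-5422+CEES library (0.061), and Xbp1 in these and without the first SNX-5422+CEES library (0.0544 to 0.0982). Creld2 lost its call in 7 fits, those without the third control, the third PAO, any of the CEES, and the first or the second SNX-5422+CEES library (adjusted p of 0.0531 to 0.185). It was also lost when only the compared groups were fitted (-0.54, adjusted p = 0.0632) and with the mitochondrial covariate (-0.45, adjusted p = 0.101). Composition moved with this comparison as well. Of the muscle markers 10 of 12 rose, from 3.35 to 3.97% of gene counts in CEES libraries to 6.23 to 8.05% in SNX-5422+CEES libraries, while 5 of 8 macrophage and monocyte markers fell (0.175 to 0.256% and 0.0909 to 0.123%) and 0 of 8 fibroblast markers passed in edgeR or DESeq2 (4 at an unadjusted p under 0.05, shares of 1.64 to 1.87% and 1.03 to 1.34%). Plasma cell markers fell for 3 of 7 tested genes, with shares of 0.00361 ± 0.000753% after CEES and 0.00148 ± 0.000312% once SNX-5422 followed it. Jchain went from 4.25 to 0.745 CPM, Igha from 15.6 to 2.76 CPM and Igkc from 4.06 to 1.02 CPM. Ighm went the other way, from 5.52 to 8.22 CPM, without passing in edgeR. DESeq2 called 1 plasma cell marker raised and 3 lowered. Keratinocyte markers rose for 3 of 8 genes (1.24 and 1.52%), and pancreatic genes for 4 of 11 (0.00156 and 0.00918%). The part of these cells in the fall of the 3 members was not tested. Muscle shares did not overlap between these groups, so a fit with that share cannot tell it apart from SNX-5422. With the muscle share as a covariate Pdia4 (-0.47, adjusted p = 0.287), Xbp1 (-0.61, adjusted p = 0.141) and Creld2 (-1.07, adjusted p = 0.0561) did not pass, and Hspa5 (-1.19, adjusted p = 0.0247) and Hyou1 (-0.61, adjusted p = 0.042) did.

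Relative to control, 9 of the 10 members were still raised in SNX-5422+CEES skin and none was lowered, where 13.1% of all genes were raised and 9.25% lowered. Log2 fold changes ran from 0.36 for Xbp1 (adjusted p = 0.0257) to 0.71 for Hspa5 (adjusted p = 0.00334), and Sdf2l1 passed narrowly (0.59, adjusted p = 0.0498). Herpud1 stood at the control level, with a log2 difference of 0.005 (95% interval -0.22 to 0.23). Without the first control, the third control, the second SNX-5422+CEES or the third SNX-5422+CEES library 6 members passed, Xbp1, Sdf2l1 and Creld2 being the ones lost. Sdf2l1 lost its call in 11 of the 15 such fits, all but those without the first or the second PAO, the first SNX-5422+PAO or the first SNX-5422+CEES library (adjusted p of 0.0513 to 0.227). Sdf2l1 was also lost with DESeq2 size factors (0.0512), upper-quartile scaling (0.0779), total counts (0.0597), the compared groups alone (0.0608) and the mitochondrial covariate (0.0502). The summed share of the 10 members in gene counts was 0.166 ± 0.00295% after CEES and 0.124 ± 0.00835% in SNX-5422+CEES.

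Whether SNX-5422 acted differently after the agents was tested by the difference of its effects. No member passed in edgeR or DESeq2, and 0.55% of all genes were raised and 0.186% lowered in edgeR. An unadjusted p under 0.05 was found for 2 members and for 2976 of all 22529 tested genes. The lowest p was that of Pdia4, whose effect after CEES minus that after PAO was -0.41 ± 0.16 on the log2 scale (95% interval -0.74 to -0.08, adjusted p = 0.245). Dnajb9 had the next lowest p, with a difference of -0.30 (-0.61 to -0.002, adjusted p = 0.376), while Hspa5 (-0.38) and Sdf2l1 (-0.33) had larger differences with wider intervals. The calls after CEES and their absence after PAO are therefore not shown to differ. With the muscle share as a covariate Hspa5 alone passed (-0.88, adjusted p = 0.0431). For either agent that share did not overlap between libraries with and without SNX-5422, so the fit cannot tell it apart from SNX-5422.

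**Figure D3:**
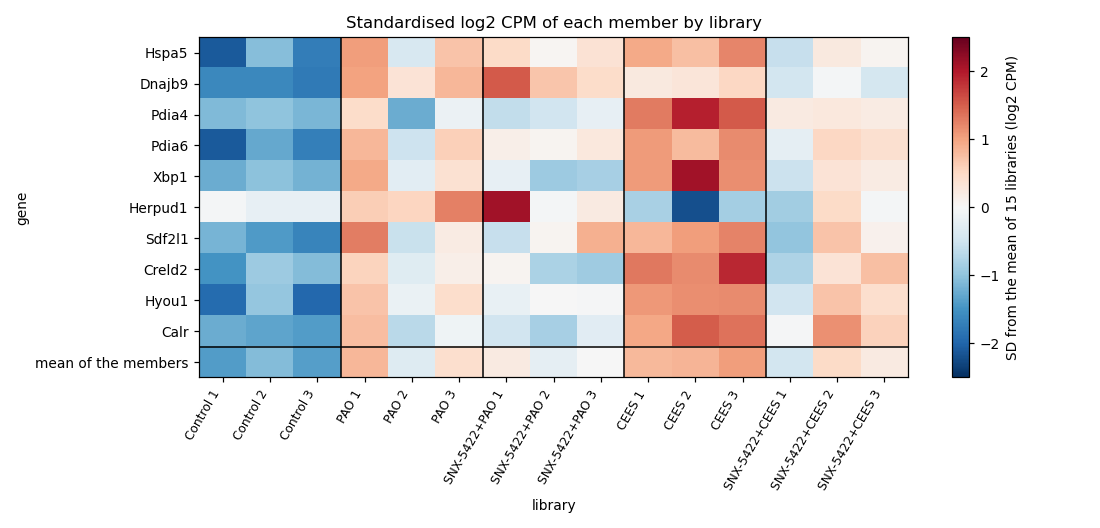
Log2 CPM of each gene (vertical axis) in each of the 15 libraries (horizontal axis), in SD from the gene's mean over all libraries, with the mean of the 10 genes in the bottom line. The mean runs from -1.40 to -1.08 in control libraries and from 0.80 to 1.04 in CEES libraries, while PAO libraries range from -0.33 to 0.82 and Herpud1 alone is low in CEES.

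Each member was also standardised over the 15 libraries to see how libraries of a group varied together. The mean of the 10 members lay between -1.40 and -1.08 SD in control libraries and between 0.80 and 1.04 SD in CEES libraries. PAO libraries spread from -0.33 to 0.82, SNX-5422+PAO libraries from -0.22 to 0.23, and SNX-5422+CEES libraries from -0.47 to 0.47 SD. By group mean of CPM, control was lowest for 9 members, and CEES was lowest for Herpud1. CEES was highest for 8 members, and SNX-5422+PAO was highest for Dnajb9 and Herpud1. Group means for Dnajb9 after PAO (37.0 CPM), in SNX-5422+PAO (38.7 CPM) and after CEES (33.7 CPM) were neighbours whose libraries overlapped.

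The tested genes closest to the mean of the members, by Pearson's r over the 15 libraries among 11638 genes with at least 5 CPM, were Cd14, B4galt5, Hsp90b1 and Plau (r = 0.97 each), then Map2k1, Ubash3b and Surf4 (r = 0.96 each) and Plod3 (r = 0.955). The 15 points share 5 treatments and the library composition described above, so the values describe likeness only. Hsp90b1 encodes GRP94, the HSP90 paralog of the ER, and its log2 fold change was 0.49 after PAO and 0.75 after CEES. Surf4, encoding a cargo receptor of the early secretory pathway, had 0.49 and 0.60, and Plod3, encoding a collagen lysyl hydroxylase of the ER, had 0.79 and 1.10. Cd14, the monocyte coreceptor for lipopolysaccharide, had 2.02 and 3.10, above the values of every member.

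**Figure D4:**
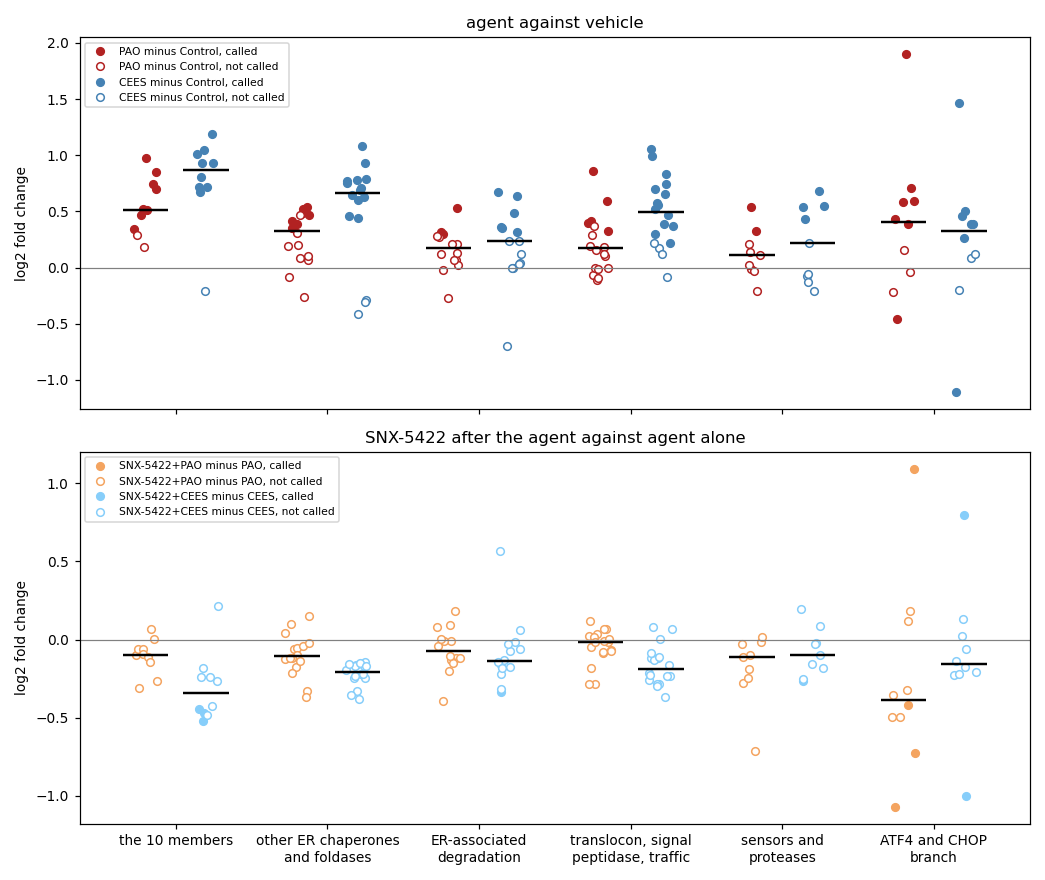
Log2 fold changes (vertical axis) of the 10 members and of 5 further lists of the same pathway, each point a gene and each bar the list's median, for the agents against control above and for SNX-5422 after the agents below. The medians of the members (0.52 and 0.86) lie above those of all 5 lists in the upper panel, and all list medians in the lower panel lie between -0.39 and -0.01.

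The wider pathway was described through 5 lists of genes that are no members. Across all tested genes 11.9% were raised and 8.58% lowered after PAO, and 17.8% and 16.2% after CEES. With SNX-5422, 2.57% were raised and 3.39% lowered after PAO, and 3.54% and 3.46% after CEES. Of the 22529 tested genes, 4490 after PAO and 4433 after CEES had an unadjusted p under 0.05 for SNX-5422. Whether the counts of any list exceed these shares was not tested. Among 16 other ER chaperones and foldases, 7 were raised after PAO and 13 after CEES, and none was lowered after either, with medians of 0.33 and 0.67. Dnajb11, encoding the BiP cochaperone ERdj3, rose from 30.3 ± 1.74 CPM in control to 43.6 ± 2.21 CPM after PAO (log2 fold change 0.53, adjusted p = 0.00176) and 52.4 ± 1.80 CPM after CEES (0.79, adjusted p = 2.12e-05). P4hb, the classical protein disulfide isomerase, rose after PAO from 206 ± 22.4 to 286 ± 28.7 CPM (0.47, adjusted p = 0.0033). Calu, encoding the calcium-binding calumenin, rose after both agents (0.54 and 0.93), and Txndc5, a further thioredoxin-domain foldase, rose after CEES (0.63). None of the 16 passed after SNX-5422 with either agent in edgeR (2 and 5 at an unadjusted p under 0.05), and DESeq2 lowered 0 and 1, with medians of -0.11 and -0.20.

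For export and import of the ER, 5 of 18 genes of the translocon, signal peptidase and vesicle traffic were raised after PAO and 14 after CEES, with none lowered and medians of 0.17 and 0.49. Spcs3, a signal peptidase subunit, went from 57.4 ± 6.99 CPM in control to 104 ± 3.99 CPM after PAO (0.86, adjusted p = 4.61e-05) and 93.2 ± 2.86 CPM after CEES (0.70, adjusted p = 8.9e-05). Sec24d, a cargo adaptor of COPII vesicles, rose after CEES from 32.0 ± 3.73 to 66.3 ± 8.25 CPM (1.05, adjusted p = 9.2e-06). Kdelr2, a retrieval receptor for ER residents, rose by 0.41 and 0.83, and Ssr2, a translocon-associated subunit, rose by 0.32 after PAO. The PAO and control libraries of Kdelr2 overlapped. Its PAO call was lost in 5 of 26 alternatives (adjusted p up to 0.208), and that of Ssr2 in 2 (up to 0.417). After SNX-5422 none of the 18 passed with PAO or with CEES in edgeR (1 and 6 at an unadjusted p under 0.05), and DESeq2 lowered 0 and 3.

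ER-associated degradation, in which misfolded proteins are drawn to the cytosol and destroyed, had 3 of 14 genes raised after PAO and 6 after CEES, with none lowered and medians of 0.17 and 0.24. Edem1, which recognises misfolded glycoproteins, had 89.3 ± 9.37 CPM in control, 112 ± 3.07 CPM after PAO (0.32, adjusted p = 0.00951) and 139 ± 5.32 CPM after CEES (0.64, adjusted p = 1.73e-05). In SNX-5422+CEES it fell to 109.8 ± 7.04 CPM (-0.34, adjusted p = 0.0168), a call of Edem1 lost in 4 of 25 alternatives (adjusted p up to 0.0657). Vcp, the ATPase that extracts substrates, rose by 0.53 and Herpud2, the paralog of Herpud1, by 0.30 after PAO. Sel1l, a scaffold of the degradation complex, rose by 0.36 and Ube2j1, its ubiquitin-conjugating enzyme, by 0.48 after CEES. The PAO call was lost in 9 of 26 alternatives for Herpud2 (adjusted p up to 0.519), in 4 for Edem1 (up to 0.284) and in 1 for Vcp. Edem1 was the 1 gene of this list lowered after SNX-5422 with CEES, and none was called with PAO (2 at an unadjusted p under 0.05 and 1 lowered by DESeq2).

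Among 9 sensors and proteases of the response, 2 were raised after PAO and 4 after CEES, with none lowered and medians of 0.11 and 0.22. Atf6 had 66.2 ± 1.16 CPM in control, 82.8 ± 5.74 CPM after PAO (0.32, adjusted p = 0.00674) and 89.5 ± 6.67 CPM after CEES (0.44, adjusted p = 0.000345), and fell to 74.5 ± 3.80 CPM in SNX-5422+CEES (-0.26, adjusted p = 0.0455). That last call of Atf6 was lost in 12 of 25 alternatives, with adjusted p up to 0.373. Its call after PAO was lost in 3 of 26 (adjusted p up to 0.3595). Creb3l2, a related membrane-bound factor, rose by 0.54 and 0.68, and Eif2ak3, encoding PERK, rose by 0.54 after CEES. None was called in SNX-5422+PAO against PAO (3 at an unadjusted p under 0.05 and 2 lowered by DESeq2).

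The ATF4 and CHOP branch moved in both directions, with 6 of 10 genes raised and 1 lowered after either agent. Trib3, a pseudokinase induced by this branch, had 2.28 ± 0.0968 CPM in control, 8.49 ± 3.00 CPM after PAO (1.90, adjusted p = 6.6e-05) and 6.29 ± 0.711 CPM after CEES (1.46, adjusted p = 0.000231). Atf4 itself rose by 0.70 after PAO and 0.27 after CEES (adjusted p = 0.0338), and Ppp1r15a, which restores translation, rose by 0.60 after PAO. The CEES call of Atf4 was lost in 7 of 26 alternatives (adjusted p up to 0.125), its PAO call in none. Asns, encoding asparagine synthetase, rose by 0.50 after CEES. Nupr1, a stress-induced chromatin protein, fell by 0.46 after PAO, and Chac1, which degrades glutathione, fell by 1.11 after CEES. The PAO and control libraries of Nupr1 overlapped, and its call was lost in 6 of 26 alternatives (adjusted p up to 0.283). In SNX-5422+PAO against PAO, Atf4 (-0.42, adjusted p = 0.0129), Trib3 (-1.07, adjusted p = 0.0139) and Chac1 (-0.73, adjusted p = 0.0314) fell, while Atf3, an early stress factor, rose from 30.3 ± 5.35 to 64.8 ± 9.16 CPM (1.09, adjusted p = 0.00136). In SNX-5422+CEES against CEES, Chac1 rose (0.80, adjusted p = 0.017) and Atf3 fell from 27.9 ± 1.76 to 13.9 ± 1.80 CPM (0.499 of its level, adjusted p = 0.00226). Among the SNX-5422 calls of this branch, Atf4 was lost in 4, Trib3 in 5 and Chac1 in 7 of 26 alternatives with PAO, and Chac1 in 5 of 25 with CEES, while Atf3 kept its call in all of them with both agents. For the SNX-5422 effect after CEES minus that after PAO, 1 of these 10 genes was raised and 1 lowered. Their log2 differences ranged from -2.10 to 1.52, and 0.55% of all genes were raised and 0.186% lowered. These lists share their control and agent libraries with the members, and whether any list differed from the members was not tested.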

How the data were processed

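Total RNA of whole skin was depleted of ribosomal RNA (Ribo-Zero Gold) per the labels' protocols. Per the submitters' processing notes, bcl2fastq 2.18.0.12, Trim Galore 0.6.7, STAR 2.7.10a and HTSeq 2.0.2 were used with GRCm39. The authors deposited 1 table of raw counts for each gene. Neither its annotation release nor its strand setting is given in the sources used here. Reads of genes that overlap on opposite strands are uncertain; exons of the members overlap other genes by at most 50 bases. Symbols were looked up by Ensembl identifier (52093 of 53700 matched). Neither library sizes nor tests used the table's 5 summary entries, of which reads with no feature held 35.2 to 46.9%. Counts of replicates differed beyond sampling noise (chi-square per degree of freedom of 6.99 to 50.2).

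Groups came from titles and treatments. The SNX-5422+CEES titles all carry number 1, so their numbers here follow the order of the records. The 15 libraries were fitted once with edgeR 4.0.16 (R 4.3.3, quasi-likelihood, TMM, filterByExpr, 10 residual degrees of freedom), with Benjamini-Hochberg adjustment over 22529 genes and calls at an adjusted p under 0.05. Standard errors came from the F statistic. On counts simulated for these genes the fit was tested before use.

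The members and lists were chosen with earlier results of these data known. All 10 members are described. From each further list up to 3 raised and 3 lowered called genes with the smallest p were named in each of the 4 comparisons of agents with control and of SNX-5422 with agent alone, and 8 genes by likeness to the mean of the members. Alternatives were other scalings, DESeq2 1.42.0, other filters, the compared groups alone, a replicate block, covariates for RNA composition, and leaving out each of the 15 libraries.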

Additional observations from a re-analysis of the deposited data

How the results depend on the processing

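Over 26 alternatives, 1886 of 2050 log2 fold changes of members kept their direction and side of the threshold, 98 lost a call, 22 gained one and 44 turned sign; of 1010 values of the other named genes 928 kept both and 82 lost a call. Numbers of members called with libraries scaled to total counts were 4 for PAO against control (8 in the fit reported), 1 for SNX-5422+PAO against PAO (0), 5 for SNX-5422+CEES against CEES (3), 2 for SNX-5422+PAO against control (5) and 8 for CEES against PAO (5). That scaling shifted the median of all genes by -0.20 for PAO and 0.12 for CEES against control, -0.13 and -0.11 for SNX-5422 after PAO and CEES, -0.34 for SNX-5422+PAO against control and 0.32 for CEES against PAO. The mitochondrial ribosomal RNA covariate gave 3 members for SNX-5422+PAO against control and 1 for CEES against PAO. The muscle covariate gave 3, 2 and, for the difference of SNX-5422 effects, 1. Where a share did not overlap between the groups compared, such a fit cannot tell it apart from the treatment. With single libraries left out, members called ranged from 5 to 9 for PAO against control, 9 to 9 for CEES against control, 0 to 1 and 0 to 4 for SNX-5422 after PAO and CEES, 4 to 5 and 6 to 9 for SNX-5422+PAO and SNX-5422+CEES against control, and 1 to 6 for CEES against PAO.

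Genes called in the fit reported numbered 4607, 7640, 1343, 1576, 4353, 5035, 4255 and 166 for PAO and CEES against control, SNX-5422 after PAO and CEES, SNX-5422+PAO and SNX-5422+CEES against control, CEES against PAO and the difference of SNX-5422 effects. The mitochondrial covariate gave 2070 for PAO against control, 451 for SNX-5422+PAO against control and 1041 for CEES against PAO. The muscle covariate gave 4238 for CEES against control, 617 for SNX-5422 after CEES, 2065 for SNX-5422+PAO against control, 1054 for CEES against PAO and 613 for the difference. Total counts gave 7501 for SNX-5422+PAO against control and 7863 for CEES against PAO; the difference had 678 by DESeq2 and 899 without a filter. Leaving out single libraries gave 2953 to 4920, 566 to 1605, 806 to 1825, 2427 to 5013, 3268 to 5400, 2825 to 4467 and 41 to 404 in the order above without CEES against control. Raised and lowered genes under total counts were 1434 and 4342 for PAO against control (2673 and 1934 in the fit reported), 5049 and 2409 for CEES (4000 and 3640), 335 and 1568 for SNX-5422 after PAO (579 and 764), 521 and 1266 after CEES (797 and 779), 646 and 6855 for SNX-5422+PAO against control (2401 and 1952) and 7067 and 796 for CEES against PAO (2222 and 2033). Upper-quartile scaling gave 2183 and 2497 for PAO, 1698 and 2414 for SNX-5422+PAO and 2501 and 2861 for SNX-5422+CEES against control (2951 and 2084).

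No called member turned sign; the turns were among differences that had not passed, and the cause was not tested. Total counts gave -0.022 for Herpud1 (PAO against control), -0.069 for Dnajb9 and -0.13 for Herpud1 (SNX-5422 after PAO), 0.18 for Dnajb9 (CEES against PAO), and -0.11, -0.18, -0.15, -0.073 and -0.13 for Pdia4, Xbp1, Herpud1, Creld2 and Calr (SNX-5422+PAO against control). The muscle covariate gave 0.12, -0.086 and -0.075 for Herpud1 (CEES against control, SNX-5422 after PAO and after CEES) and 0.12 for Dnajb9 (CEES against PAO), where the mitochondrial covariate gave -0.044 for Hspa5. Herpud1 after SNX-5422 with PAO was -0.0036 at the upper quartile and -0.00079 with at least 1 CPM in 3 libraries; in SNX-5422+CEES against control it was -0.00018 with DESeq2 size factors, -0.067 at the upper quartile, -8.9e-05 in DESeq2 and -0.0022 with at least 1 CPM. Leaving out single libraries gave, for SNX-5422 after PAO, -0.28 to 0.041 for Hspa5, -0.063 to 0.13 for Dnajb9, -0.21 to 0.077 for Pdia4, -0.20 to 0.027 for Pdia6, -0.14 to 0.075 for Herpud1 and -0.27 to 0.13 for Sdf2l1, for Herpud1 in SNX-5422+CEES against control -0.054 to 0.070, and for Calr in the difference of effects -0.17 to 0.032.

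Same-numbered libraries of different groups did not deviate together (18 pairs, r of -0.10 to 0.10). With 3 libraries a group this gives no sign of pairing by number and cannot exclude it. A replicate block on the 12 libraries with numbered titles called 8, 9, 0, 5 and 4 members for PAO and CEES against control, SNX-5422 after PAO, SNX-5422+PAO against control and CEES against PAO, losing Xbp1 in the last (0.34, adjusted p = 0.065), and 4058, 7086, 1072, 3666 and 3697 genes; with the block Herpud1 after SNX-5422 with PAO was -0.0048. With 3 libraries a group, the intervals of single members span about the size of the SNX-5422 differences, and Sdf2l1, with the fewest counts, has the widest.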
